A study of Canis lupus familiaris with 6 samples.

Results

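The 6 genes PLAU, PLAUR, PLAT, PLG, SERPINE2 and SERPINB2 of the plasminogen activator system were followed in MDCK, an epithelial cell line from dog kidney, on single-colour Agilent canine expression arrays. They were represented by the 10 non-control probes, of 43603 on the array, whose gene name in the array design was one of these symbols. The genes were chosen by measured values, since the fall of PLAU between these same cultures was already known. The difference between the cultures is therefore given for them as a description, with no test. All samples were β-cat ΔN/RasV12 cells, which carried a stable mCherry-tagged β-catenin lacking its N-terminal part (β-catenin Δ131) and tetracycline-inducible GFP-RasV12, a constitutively active Ras. The single culture (3 arrays) held these cells by themselves. In the mix culture (3 arrays) each was accompanied by 10 neighbouring β-cat ΔN cells, which carry the same β-catenin and no RasV12. Both groups received tetracycline for 24 h on collagen-coated dishes, and GFP-positive cells were sorted before total RNA was taken. The single culture was thus itself a transformed culture, and neither RasV12-free cells nor cells without tetracycline were analysed here. Whether the cell lines were single clones, and whether the arrays of a group came from separate cultures, was not given in the labels, so that the spread between arrays may be technical.

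Plasminogen, the product of PLG, is a circulating zymogen made mainly in the liver. It is cut to plasmin, a protease that degrades fibrin and matrix proteins, by urokinase (uPA, from PLAU) and by tissue plasminogen activator (tPA, from PLAT). PLAUR encodes the receptor that holds urokinase at the cell surface. Protease nexin 1, from SERPINE2, and plasminogen activator inhibitor 2, from SERPINB2, are serpins that inhibit the activators. In epithelia the system is best known for pericellular proteolysis during migration and wound closure.

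The probes for both activators and the urokinase receptor are shown first, because what was measured is their binding and not the whole transcript. All 10 were 60 bases long, and positions are those of the array design on CanFam3.1. The 2 PLAU probes detect different stretches of the urokinase transcript on the plus strand of chromosome 4. Probe A_11_P153188 lay at chr4:24331270-24331329. Probe A_11_P0000024277 spanned chr4:24332536-24332945, so that 350 genome bases not in the probe separate its parts. The PLAUR probe lay at chr1:111490389-111490448 on the plus strand. The 2 PLAT probes, at chr16:23495222-23495281 and chr16:23495224-23495283 on the plus strand, share 58 bases, which are in capitals, and so are not independent measurements of tPA. Exon and UTR annotation of this build was not used here.
PLAU A_11_P0000024277: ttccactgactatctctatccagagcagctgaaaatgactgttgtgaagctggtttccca
PLAU A_11_P153188: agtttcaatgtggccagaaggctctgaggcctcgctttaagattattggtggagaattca
PLAUR A_11_P0000021963: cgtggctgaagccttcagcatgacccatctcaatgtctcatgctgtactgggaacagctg
PLAT A_11_P0000027228: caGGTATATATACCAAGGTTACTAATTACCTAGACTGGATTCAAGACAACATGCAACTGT
PLAT A_11_P078161: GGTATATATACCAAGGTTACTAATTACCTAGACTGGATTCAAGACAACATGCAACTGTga

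Each array held 43803 non-control spots, of which 61.11% to 65.66% were well above background by the scanner software. The replicate 1 arrays shared a slide (slide 1), the other 4 arrays shared a second one (slide 2), and the slide separated probes more often than the culture did, with 47.2% of 26623 tested probes called between slides. Of 10 markers of kidney epithelium, 8 were on the array by name, and all 8 were well above background on every array. Their summed signal was 69864.8 to 102526 intensity units in single culture and 58640.9 to 74452.1 in mix culture, and was mostly KRT18. In mix culture 6 of the 8 had a lower and 2 a higher mean log2 signal. With the slide in the model 1 of them, CDH1, was called, lower in mix culture. The summed signal of 6 fibroblast markers ranged from 135.572 to 372.363 and from 122.378 to 340.324. COL1A2 and PDGFRB were well above background on all 6 arrays, COL1A1 on 4, LUM on 2, and COL3A1 and DCN on none. The summed signal of 6 leukocyte markers ranged from 239.897 to 330.975 and from 234.54 to 328.474. CD68, CD14 and CD3E were well above background on all 6 arrays, CSF1R on 5, and PTPRC and LYZ on none. The summed signal of 5 endothelial markers ranged from 918.276 to 2888.53 and from 843.991 to 3350.29, and was mostly VWF. PECAM1, KDR and VWF were well above background on all 6 arrays, CDH5 on 1 and TEK on none. The probe for HRAS, the gene of the introduced oncoprotein, gave a normalised log2 signal of 6.42 ± 0.43 in the single and 5.79 ± 0.36 in the mix cultures (SD, n = 3 each). The difference was -0.62 (SE 0.28, adjusted p = 0.608 by limma, a linear model fitted across all probes). With the slide in the model the limma adjusted p was 0.065. Whether this probe detects the introduced sequence was not tested. Surrounding cells left in the sorted fraction were not measured, and their part in any difference below was not tested.

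Signals of PLAU, PLAUR, PLAT and SERPINE2 were well above background on all 6 arrays, whereas PLG and SERPINB2 were not well above background on any. The 3 PLG probes lay on the minus strand at chr1:49514396-49514455, chr1:49497268-49497327 and chr1:49497285-49497344, the last 2 sharing 43 bases. The SERPINB2 probe lay at chr1:13260847-13260906 on the minus strand. These 4 probes gave 0.841 to 2.25 intensity units, while the lowest signal that counted as well above background was 4.19 to 4.48 units on the same arrays. In neither culture were these probes well above background, and no fold is given. Of the 6 genes, 4 thus had a measurable transcript, through 6 probes, and these passed the filter on dim probes.

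**Figure D1:**
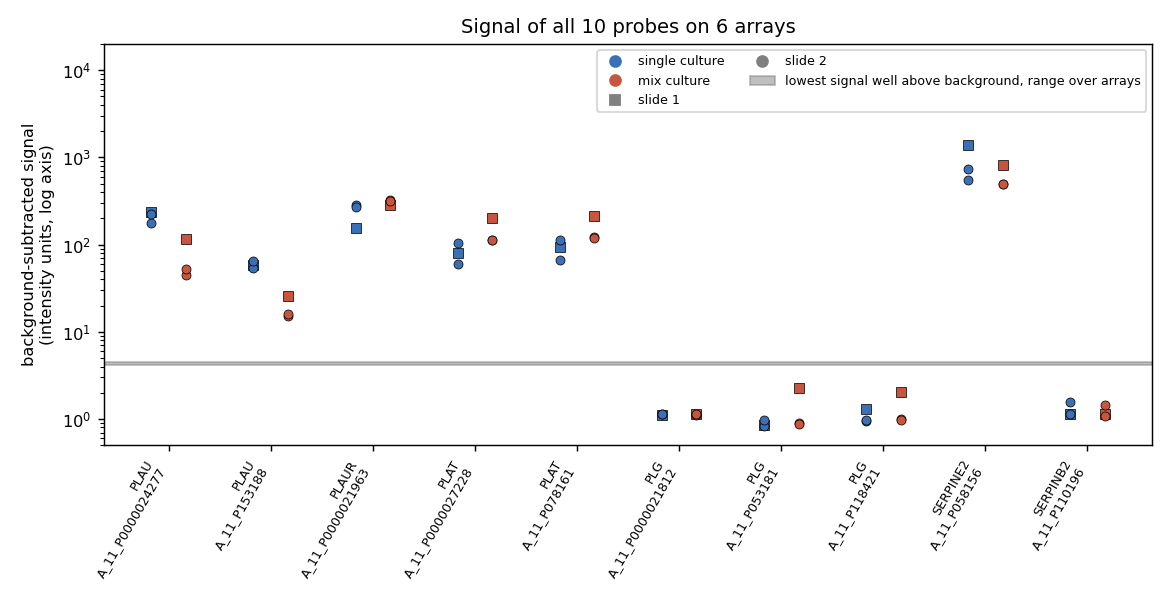
Background-subtracted signal (intensity units, log axis) of all 10 probes on the 6 arrays, single culture in blue and mix culture in red, squares for slide 1 and circles for slide 2, with a grey band for the lowest signal that was well above background (4.19 to 4.48 units). The 3 PLG probes and the SERPINB2 probe lie below the band on every array, and the other 6 probes lie above it.

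PLAU, which encodes the secreted protease urokinase, had lower values in mix culture with both of its probes. In signal units, probe A_11_P0000024277 gave 238, 176 and 223 in single cultures 1, 2 and 3, and 116, 44.3 and 53.2 in mix cultures 1, 2 and 3. The second probe, A_11_P153188, gave 58.9, 53.8 and 64.0 in single culture and 26.0, 15.3 and 16.2 in mix culture. With either probe every mix culture was below every single culture, and the mix culture on slide 1 was the highest of its group. After normalisation (log2 signal minus the 75th percentile of the array), A_11_P0000024277 averaged 0.22 ± 0.15 in single and -1.55 ± 0.51 in mix culture (SD, n = 3 each), a log2 difference of -1.77 (SE 0.27), which is 3.40-fold lower. A_11_P153188 averaged -1.62 ± 0.19 and -3.35 ± 0.20, a log2 difference of -1.72 (SE 0.18), or 3.30-fold lower. The gap on the log2 scale between the lowest single culture and the highest mix culture was 1.09 for the first probe and 1.36 for the second. From bulk RNA of sorted cells, fewer cells that express a gene cannot be told apart from less of its RNA in each cell.

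The fall of PLAU was present within each slide. On slide 1, with 1 array of each culture, the log2 difference was -1.22 for A_11_P0000024277 and -1.36 for A_11_P153188. On slide 2, with 2 arrays of each, it was -2.04 and -1.91. Among all 26623 tested probes, whose median log2 difference was -0.05, 7 had a more negative difference than A_11_P0000024277 and 8 than A_11_P153188. In the fit of all arrays 18 probes were called lower in mix culture (0.0676% of those tested, limma with Benjamini-Hochberg adjustment, adjusted p under 0.05), and 217 were called higher (0.815%). These shares describe the contrast over all probes, and since PLAU was picked for its fall in it, no call is given for the members. When each array was left out in turn, the log2 difference ranged from -2.04 to -1.53 for A_11_P0000024277 and from -1.82 to -1.62 for A_11_P153188. With another background correction (normexp with an offset, then quantile normalisation) it was smaller, -1.16 and -0.67.

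**Figure D2:**
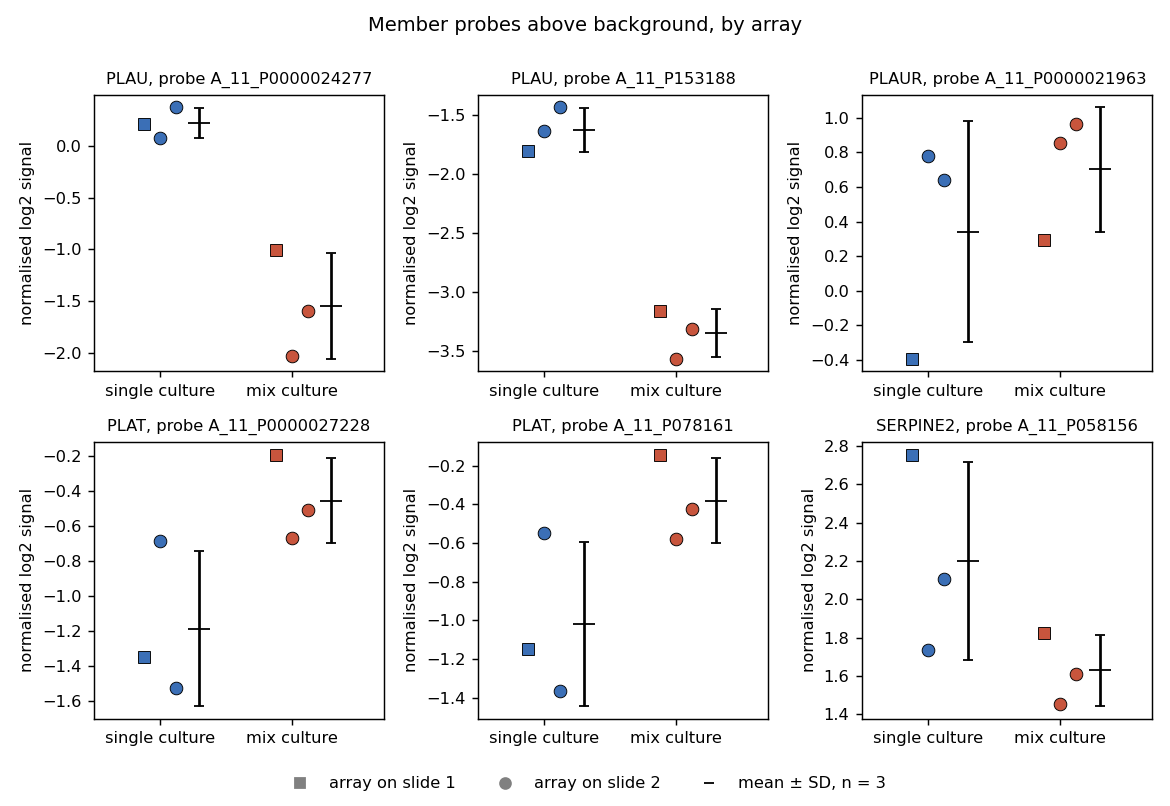
Normalised log2 signal (y axis) of the 6 member probes above background on each single culture (blue) and mix culture (red) array, squares for slide 1 and circles for slide 2, with the mean and SD of 3 arrays beside each group. Both PLAU probes separate the cultures by more than 1 log2 unit, while PLAUR, SERPINE2 and PLAT probe A_11_P078161 overlap.

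PLAT, which encodes tPA, the other activator, had higher mean values in mix culture. Probe A_11_P0000027228 gave 80.8, 104 and 59.9 signal units in single cultures 1, 2 and 3, against 203, 114 and 113 in mix cultures 1, 2 and 3. Its normalised log2 signal averaged -1.19 ± 0.44 and -0.46 ± 0.24 (SD, n = 3 each), a difference of 0.73 (SE 0.26), or 1.66-fold. Single culture 2 came close to the mix cultures, and the groups were apart by a gap of only 0.018. Probe A_11_P078161, which differs from it by a shift of 2 bases, gave 92.9, 114 and 66.9 against 211, 121 and 120 signal units. Its difference was 0.64 (SE 0.25), or 1.56-fold, and its groups overlapped. With normexp the differences were 0.48 and 0.41. On slide 1 alone the log2 differences were 1.15 and 1.00, and on slide 2 they were 0.52 and 0.46. PLAT thus had a higher mean in mix culture on both slides, with the higher value on slide 1 resting on 1 array of each culture. On slide 2, single culture 2 was close to mix culture 2 with A_11_P0000027228 (log2 signal -0.69 and -0.67). With A_11_P078161 it was above mix culture 2 (-0.55 and -0.58).

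PLAUR, the urokinase receptor, had overlapping groups over the 6 arrays, although within each slide every mix culture was above every single culture. Its signals were 157, 286 and 269 units in single cultures 1, 2 and 3, and 285, 326 and 314 units in mix cultures 1, 2 and 3. The low value of single culture 1 stood out, and the mix culture of that slide lay below single culture 2. The mean normalised log2 signal was 0.34 ± 0.64 in single and 0.70 ± 0.36 in mix culture (SD, n = 3 each), a difference of 0.36 (SE 0.35). It was 0.68 on slide 1 and 0.20 on slide 2. Without single culture 1 the difference was -0.01, in a fit where the mix culture of slide 1 had no single culture of its slide. Slide 2 alone, which also lacks that array, gave the 0.20 above.

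SERPINE2 encodes protease nexin 1, which inhibits urokinase, tPA and thrombin. Its probe lay at chr37:29699828-29699887 on the minus strand and gave 1387, 555 and 743 signal units in single cultures 1, 2 and 3, and 823, 495 and 492 units in mix cultures 1, 2 and 3. The signal of mix culture 1, on slide 1, was above that of both single cultures of slide 2, so that the groups overlapped, although within each slide every single culture was above every mix culture. The normalised log2 signal averaged 2.20 ± 0.52 and 1.63 ± 0.19 (SD, n = 3 each), a difference of -0.57 (SE 0.27), or 1.48-fold lower in mix culture. The difference was -0.93 on slide 1 and -0.39 on slide 2. Without single culture 1 it was -0.29, in a fit where the mix culture of slide 1 had no single culture of its slide.

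Counted together, 2 of the 6 probes, both PLAU, had all mix cultures below all single cultures, and 1, a PLAT probe, had all of them above. Over all tested probes 8.66% lay wholly below and 7.85% wholly above. These counts come from the contrast that chose the genes, and nothing is read from them. With the slide as a block in the fit, 1917 probes were called (7.2% of those tested, 1060 higher and 857 lower in mix culture), a share that serves below for the other genes of the pathway.

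**Figure D3:**
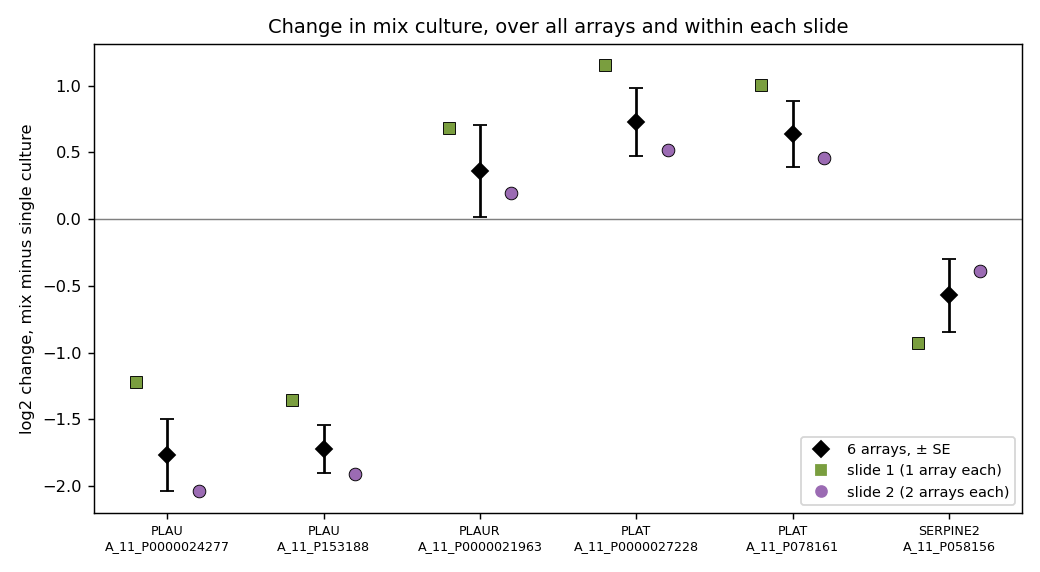
Log2 difference, mix minus single culture (y axis), of the 6 member probes above background, over all 6 arrays with its SE (diamonds) and within slide 1 (squares, 1 array of each culture) and slide 2 (circles, 2 of each). All 3 values lie on the same side of 0 for every probe, and PLAU ranges from -2.04 to -1.22.

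Differences that did not enter the choice of the genes could be tested. Slide 1 was scanned at 3 and slide 2 at 5 microns per pixel, with different versions of the scanner software. Replicate number also changed with the slide, so a difference between slides cannot be told apart from these. Between slides, with culture in the model, PLAUR was higher on slide 2 by 0.86 on the log2 scale (SE 0.14, limma adjusted p = 0.00202), and in each culture both arrays of slide 2 were above the array of slide 1. SERPINE2 was lower on slide 2, with a log2 value of -0.56 (SE 0.17, adjusted p = 0.0246), but was not called after quantile normalisation (-0.43) or without the filter on dim probes. The 2 PLAU and 2 PLAT probes were not called (log2 values of -0.39, 0.00, -0.08 and -0.08, adjusted p between 0.157 and 0.990). Of the 6 member probes 2 were thus called, no larger a share than the 47.2% over all probes. The change between cultures was also compared between slides through an interaction term. It was called for none of the 6 member probes (adjusted p from 0.514 to 0.747; 1 of 6, the PLAU probe A_11_P0000024277, at an unadjusted p under 0.05, against 9.14% of all tested probes) and for 10 of all tested probes (0.0376%). For that probe the fall was larger on slide 2 by -0.82 on the log2 scale (SE 0.32), and with 1 array of each culture on slide 1 this comparison has little precision.

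The remaining genes of the pathway were taken from 5 lists with 81 genes, of which 71 were on the array by name and 57 were tested with the brightest probe of each. None was called in the fit without a block (10 of 57 at an unadjusted p under 0.05, against 8.71% of all tested probes), and 8 of 57 were called with the slide as a block, where 7.2% of all probes were. The lists were chosen with earlier results of these data known, so the calls and adjusted p values of their genes are descriptive. No conclusion on the pathway is drawn from their share. Medians of the lists, given next, are set beside the median of -0.05 over all tested probes.

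Receptors that hold plasminogen on cells were represented by 3 tested genes of 5, with a median log2 difference of -0.07 and none called with or without the block. ANXA2, annexin A2, a plasminogen-binding protein of the cell surface, averaged 7.50 ± 0.15 in single and 7.09 ± 0.18 in mix culture (SD, n = 3 each), a difference of -0.41 (adjusted p = 0.557). PLGRKT, a membrane receptor for plasminogen, differed by 0.24 (adjusted p = 0.947). Of the other protease inhibitors 7 of 13 were tested, none was called with or without the block, and the median was -0.11. SERPINA5, protein C inhibitor, differed by -0.20 with an SE of 0.73 (adjusted p = 0.981).

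Partners of the urokinase receptor and the receptors that clear urokinase with its inhibitors had 13 of 18 genes tested and a median of -0.10. With the slide as a block 1 was called, lower. It was ITGAV, the αv integrin subunit that pairs with several β subunits to bind vitronectin, with a difference of -0.72 (SE 0.30; adjusted p = 0.563 without and 0.00866 with the block; -0.61 on slide 1 and -0.77 on slide 2). LRP1, the endocytic receptor for urokinase bound to inhibitor, differed by 0.45 (adjusted p = 0.898 without and 0.0679 with the block). Among plasmin targets and related proteases 18 of 28 were tested, with a median of -0.17, and 1 was called with the block, lower. It was TGFB1, the growth factor whose latent form plasmin can release, which differed by -0.64 (SE 0.41; adjusted p = 0.785 without and 0.0125 with the block; -0.66 on slide 1 and -0.63 on slide 2). F2RL1, protease-activated receptor 2, differed by -0.60 (adjusted p = 0.469 without and 0.0553 with the block).

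Transcription factors of the AP-1, ETS and NF-κB families, which have been reported at the urokinase promoter, had 16 of 17 genes tested and a median of 0.11. Without a block none was called, and with the slide as a block 3 were called higher and 3 lower. ETS2 averaged -0.82 ± 0.34 in single and 0.79 ± 0.49 in mix culture (SD, n = 3 each), a log2 difference of 1.60 (SE 0.29; adjusted p = 0.0745 without and 0.000398 with the block; 1.44 on slide 1 and 1.68 on slide 2). FOSL2, an AP-1 subunit, differed by 1.02 (adjusted p = 0.227 and 0.00228), and REL, an NF-κB subunit, by 0.50 (0.494 and 0.0414). ETS1 averaged 3.33 ± 0.25 and 2.34 ± 0.16, a difference of -0.99 (SE 0.19; adjusted p = 0.0821 without and 0.00177 with the block; -1.12 on slide 1 and -0.93 on slide 2). ETV5 differed by -0.86 (0.535 and 0.0164) and FOSL1 by -0.55 (0.629 and 0.0231). Members of the ETS family and of the AP-1 family were thus called in both directions with the block.

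**Figure D4:**
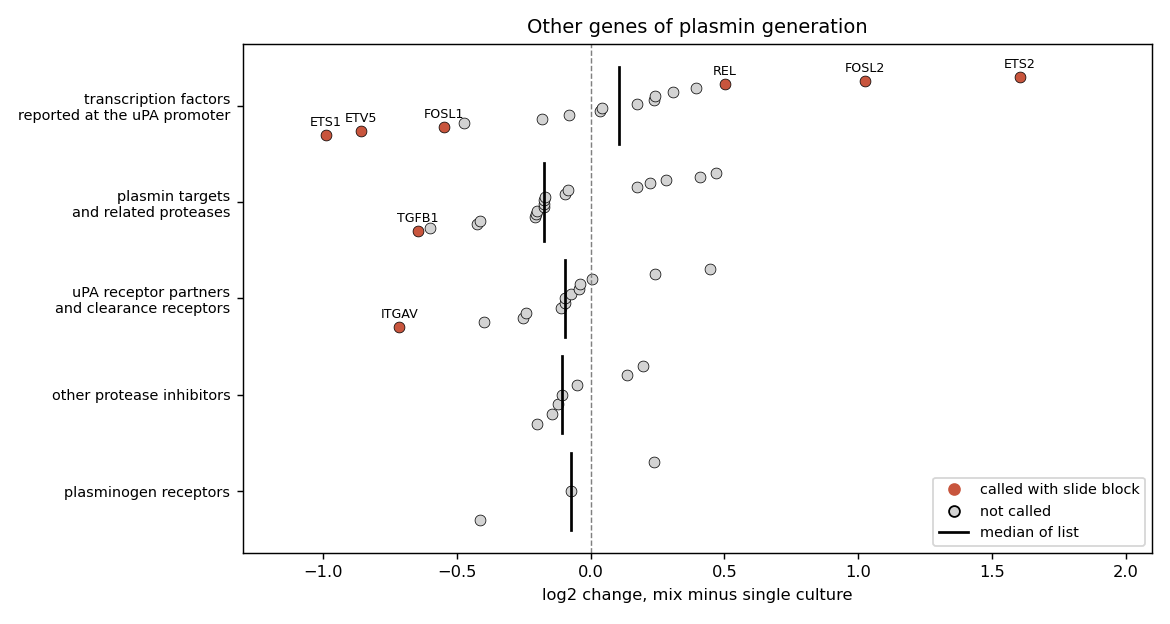
Log2 difference, mix minus single culture (x axis), of the 57 tested genes in 5 lists of the plasminogen system, a point for each gene and a vertical line for each list's median. Red points, with names, were called with the slide as a block (8 genes), and the others were not; 6 of the 8 are transcription factors, from ETS1 at -0.99 to ETS2 at 1.60.

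Over the 6 arrays the genes whose normalised log2 signal was most like that of PLAU probe A_11_P0000024277, among 14796 named probes above background on all arrays, were ANLN (Pearson's r = 0.992), SPDL1 (0.989), UBE2Q2 (0.987), PGM2L1 (0.985) and PMEPA1 (0.981). The second PLAU probe had r = 0.977. After the mean of each slide was subtracted they were CDC42BPA (0.999), PAWR (0.999), IMMP1L (0.999), SPDL1 (0.998) and GTPBP3 (0.998), with 0.996 for the second PLAU probe. SPDL1 was in both sets of 5. Of the other members SERPINE2 had r = 0.731, PLAUR -0.492 and the PLAT probes -0.691 and -0.670 before the slide means were subtracted. The 6 arrays are 2 groups on 2 slides, and any probe with a fall of like shape has a high r. ANLN encodes anillin, a scaffold of the contractile ring in dividing cells. Its values were 1.73, 1.58 and 1.78 in single culture and 1.21, 0.92 and 1.00 in mix culture, a difference of -0.65 on the log2 scale. PMEPA1, a membrane protein that limits TGF-beta signalling, had 4.94, 4.49 and 4.75 against 4.05, 3.29 and 3.52, a difference of -1.11. SPDL1, a kinetochore protein, differed by -0.49. These differences were between 0.49 and 1.11 log2 units in size and so smaller than that of PLAU.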

How the data were processed

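The authors deposited one scanner file for each of the 6 arrays holding linear spot intensity values. Background had been subtracted within each array by Agilent Feature Extraction, per the file headers (11.5.1.1 on slide 1, 12.1.1.1 on slide 2). A further table deposited by the authors, with steps not stated, held log2 values of these arrays. Its columns for mix cultures 2 and 3 each matched the other's scanner file (r = 0.999 and 0.993 within slide 2), and it served only as an alternative. Groups came from the sample titles. No column of the files was left unassigned to a sample.

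The background-subtracted signals were put on the log2 scale, 5 to 9 flagged spots per array were dropped, spots of a probe were averaged, and the 75th percentile of each array (161.03 to 232.67 units) was subtracted. No spot was saturated. A probe without a flagged spot was tested if all arrays of 1 group or both had it well above background (26623 probes). The cultures were compared by lmFit and eBayes of limma 3.58.1 (R 4.3.3, two-sided) with Benjamini-Hochberg adjustment, and a probe was called at an adjusted p under 0.05. Slide and interaction terms were fitted in the same way, and the scripts were tested on simulated data. The number of arrays limits the precision.

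The members and gene lists were chosen with earlier results of these data known. Named genes were every member probe, the called genes and the 2 with the largest change in each list, and the 5 most like PLAU with and without slide means. One gene that this rule selects is not reported here. HRAS was added. REL, ETS1, ETV5 and FOSL1 were named as calls with the slide block. Symbols were those of the array design, and 5 of the 6 members matched a RefSeq gene table of UU_Cfam_GSD_1.0, used for names only. Deviations of same-numbered arrays from their group means were correlated (0.801, 0.530 and 0.572). The numbers follow the slides in part, and arrays with unlike numbers were not compared. Whether the numbers pair the arrays was therefore not tested, and the replicate block assumed that they do. Alternatives were blocks by slide and by replicate, normexp with an offset of 50 and quantile normalisation, filters, slide 2 alone, each array left out, the authors' table, and the methods' unpaired test.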

Additional observations from a re-analysis of the deposited data

How the results depend on the processing

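The fit of all arrays called 235 probes between cultures. Other fits, each with its own calls, gave 1917 with the slide as a block, 1399 with the replicate block, 134 with normexp on the median spot signal, 4077 with the authors' table, 143 for probes well above background on all 6 arrays, 983 on slide 2 alone and 8 by the methods' unpaired test. Leaving out 1 array gave 86 to 242, with 94 without single culture 3, 92 without mix culture 2 and 86 without mix culture 3. The log2 differences of the 6 member probes kept their sign and stayed within 1 SD of the arrays in 81 of 84 comparisons. The slide and replicate blocks and the changes of the probe filter cannot alter these differences in this balanced design. Agreement in those comparisons was thus fixed in advance. PLAU probe A_11_P0000024277 moved to -1.16 and A_11_P153188 to -0.67 with normexp, and PLAUR turned to -0.0063 without single culture 1, in a range of -0.0063 to 0.58 over arrays left out. The call of SERPINE2 between slides was lost with quantile normalisation (-0.43) and without the filter (-0.56). The interaction count of 10 became 4 with quantile normalisation and 493 without the filter. Of the 16 transcription factors none was called in the fit of all arrays without a block, 6 were with the slide block, 5 with the replicate block or on slide 2 alone, 8 with the authors' table, and 1 with normexp, with quantile normalisation or without mix culture 1. The causes of these shifts were not tested.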
